A study of Mus musculus with 32 samples.

Results

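Donor CD8 T cells were compared before and after transfer into allogeneic recipients in mice with acute graft-versus-host disease (GVHD), in which transplanted T cells attack the tissues of the host. The comparison rests on 6 of the 31 RNA libraries of the series: 4 libraries of CD8 cells recovered from allogeneic recipients with untreated GVHD, which had not been given the regulatory T cells that other recipients received, and 2 libraries of CD8 cells taken before transplantation (day 0), chosen by their labels. The donors were C57Bl6 and the allogeneic recipients Balb/c, which differ at the major histocompatibility genes. Cells came from spleen and lymph nodes, and full-length cDNA was made before library preparation. The titles give day 6 for the transplanted cells and the design text day 8. CD8 cells of 3 syngeneic recipients and CD4 cells of the same kinds of groups, 4 allogeneic and 2 day 0 libraries, served for comparison. The labels do not say whether a library came from 1 animal or a pool, so the p-values measure only the spread between libraries. Unless another fit is named, the RNA tests took that spread over all 31 libraries, CD4 and regulatory T cell libraries included.

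Naive CD8 T cells circulate through lymph nodes, which they enter with the help of the chemokine receptor CCR7, and are kept quiescent by transcription factors such as TCF-1 and KLF2. After the T-cell receptor (TCR) meets its antigen, the cells divide, change their metabolism and load cytotoxic granules with granzymes and perforin. Donor CD8 cells that recognise host class I molecules are among the cells that damage host tissue in this disease.

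Levels below are normalised counts as the authors deposited them, in the order JL019, JL027 for day 0 and JL019-1, JL019-2, JL027-1, JL027-2 for allogeneic libraries, where JL019 and JL027 are the prefixes of the labels, which the TCR tables list as experiments. The depth of the RNA libraries is unknown. A log2 change is allogeneic minus day 0 on the scale log2(normalised count + 1), which understates the change of low genes. A gene is called where the limma Benjamini-Hochberg adjusted p over all 16741 genes was under 0.05. In bulk RNA, fewer cells of a type and less RNA per cell cannot be told apart.

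Several libraries stood apart before any comparison. The day 0 library JL019 had 15539 genes at 10 or more normalised counts, against 14016 in day 0 JL027 and 13693 to 14206 in the allogeneic libraries, and the 2 day 0 libraries differed by over 2-fold in 3687 genes (Pearson's r 0.95 across genes). Allogeneic JL027-1 correlated at 0.9595 to 0.9639 with the other allogeneic libraries, which correlated at 0.9742 to 0.9766 among themselves. Y-linked Ddx3y stood at 1809 and 1170 in the JL027 allogeneic libraries and between 0 and 9.93 in the JL019 allogeneic and both day 0 libraries, so the JL027 day 0 library did not match the JL027 allogeneic libraries for a Y-linked gene. Eif2s3y showed the same split, at 2776 and 2001 against 0.453 to 16.3. Within JL019, where Ddx3y was low in all 3 libraries, the comparison gave 3095 called genes.

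Markers of other cells also moved. The 9 erythroid markers in the table summed to 61002 and 72894 normalised counts at day 0 and to 1486, 833, 15950 and 8607 in the allogeneic libraries. The 12 B cell markers summed to 100370 and 133440 at day 0, mostly from Ighm and Igkc, and to 11679 to 14160 after transfer, while the 8 CD8 T cell markers summed to 162020 and 213660 and to 160260 to 217740. All 9 erythroid and all 12 B cell markers had negative log2 changes, and 4 and 8 of them were called lower, against 14.2% of all genes. The part of these markers in the results below was not tested.

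**Figure D1:**
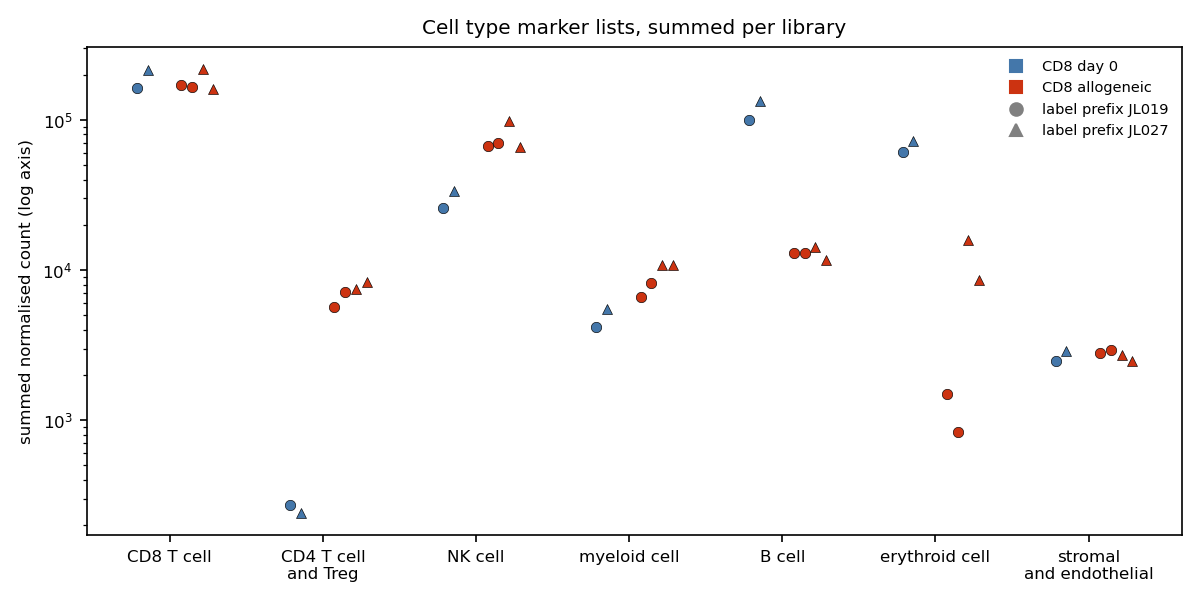
Summed normalised counts (log axis) of each cell type marker list in the 2 day 0 (blue) and 4 allogeneic (red) CD8 libraries, with circles for prefix JL019 and triangles for JL027. The CD8 T cell sums overlap between the groups, whereas the B cell and erythroid sums are higher in both day 0 libraries than in any allogeneic library.

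CD8 cells from allogeneic recipients differed from day 0 CD8 cells in 5097 of 16741 genes, 30.4% of those tested, with 2726 higher (16.3%) and 2371 lower (14.2%). Called higher were 18 of 22 granule and killing genes, 11 of 16 inhibitory receptors, 10 of 19 cytokines and chemokines and all 28 mitotic genes, and called lower were 18 of 25 genes of lymph node homing and the naive state. Of all called genes, 194 rose and 274 fell past 16-fold. In 8352 genes (49.9%) every allogeneic library lay on 1 side of both day 0 libraries, and 4944 of these genes were called. The log2 changes of all genes had a median of -0.13, which became 0.03 when each library was centred on its own median, with 3103 higher and 1835 lower genes called. Leaving out day 0 JL019 lowered the number of called genes to 2795, with the remaining day 0 library assumed to vary like the other groups, and all 5097 genes kept their sign.

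**Figure D2:**
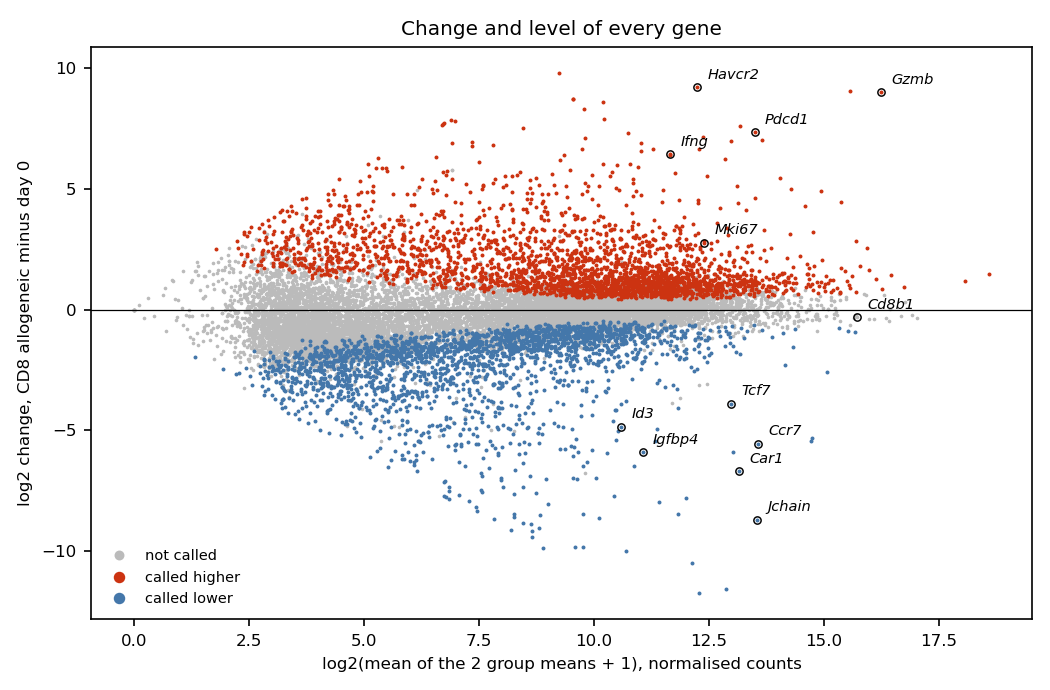
Log2 change of each of the 16741 genes against its level, log2(mean of the group means + 1) in normalised counts, with called genes in red (2726 higher) and blue (2371 lower), the others grey, and 12 named genes circled. Havcr2, Gzmb, Pdcd1 and Ifng lie high, Jchain, Car1 and Ccr7 low, and Cd8b1 near 0.

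The genes that define the sorted population did not pass the test. Cd8b1 (ENSMUSG00000053044), the beta chain of the CD8 coreceptor, stood at 50321 and 68117 at day 0 and 44470.0, 44702, 61715 and 40800.3 in the allogeneic libraries, with overlapping groups (log2 change -0.31, SE 0.39, adjusted p 0.585), although limma called it lower with the library mean as a covariate (log2 change -1.40, adjusted p 2.2e-06) and after quantile normalisation (-0.94, adjusted p 0.0477). Cd8a, the alpha chain, stood at 23173 and 31914 and then 14160.0, 16664, 19947 and 16836, all below day 0, but its log2 change of -0.70 (SE 0.75, adjusted p 0.506) was not called. A fit on the 6 libraries alone called Cd8a lower (adjusted p 0.0336). Of the 8 CD8 T cell markers, Cd3e and Trac among them, limma over all 31 libraries called 0, against 30.4% of all genes. In that fit 4 markers had positive and 4 negative changes. After quantile normalisation 2 markers were called lower, against 2230 of all 16741 genes. Cd4, which marks the other main T cell lineage, stayed between 23.9 and 92.8 in all 6 libraries.

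Of 25 genes of the naive state and of lymph node homing, 18 were called lower and 0 higher, against 14.2% of all genes called lower, and their median log2 change was -2.92. Ccr7 (ENSMUSG00000037944), the receptor for the chemokines of lymph nodes, fell from 20003 and 27448 at day 0 to 561, 476, 471 and 485 in the allogeneic libraries, a log2 change of -5.56 (SE 0.47, adjusted p 6.41e-10). The groups did not overlap for this gene. The summed B cell markers were lower in the same libraries, 11679 to 14160 against 100370 and 133440, and their part in these falls was not tested.

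Other members of the list had similar falls. Igfbp4, a binding protein of insulin-like growth factors, went from 3532 and 4836 to 65.4, 63.7, 77.6 and 66.2 (log2 change -5.90, SE 0.43, adjusted p 3.9e-11). Rflnb, a regulator of filamin, went from 2275 and 2977 to 112, 127, 74.3 and 121 (log2 change -4.60, SE 0.24, adjusted p 7.17e-14). Il6ra, the interleukin-6 receptor, fell by 5.82 on the log2 scale and Dapl1 fell by 5.45. Il7r, the interleukin-7 receptor that sustains resting T cells, was not called: it stood at 10108 and 12484 and then 6712, 5576, 5581 and 3573, all below day 0 (log2 change -1.10, SE 0.44, adjusted p 0.059). S1pr1, which lets T cells leave lymph nodes, stood at 15000.0 and 20223 and 12443, 11218, 9188 and 9808 (log2 change -0.72, SE 0.44, adjusted p 0.223). Klf2, a transcription factor that drives S1pr1, stood at 8327 and 8484 and 6314, 6608, 2615 and 6598 (log2 change -0.70, SE 0.34, adjusted p 0.123). JL027-1 alone was far below the others for Klf2. The 7 members of the list that did not pass the test were Klf2, S1pr1, Il7r, Foxo1, Satb1, Npc2 and Ets1. Alternative fits called some of them lower. Il7r passed after quantile normalisation (adjusted p 0.00332), in a fit on the 6 libraries alone (0.00916), within prefix JL027 (0.0136), with the library mean as a covariate (0.0289), and with a replicate block for the recipient (0.0489) or the prefix (0.0497). S1pr1 passed in the fit on 6 libraries (adjusted p 0.0281) and Klf2 after quantile normalisation (0.00786).

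The transcription factors of memory and stem-like T cells showed the same direction, with 7 of 12 called lower (14.2% of all genes), 0 higher and a median log2 change of -1.32. Id3 (ENSMUSG00000007872), an inhibitor of E proteins, fell from 2607 and 3319.6 to 99.03, 92.8, 98.4 and 113 (log2 change -4.86, SE 0.34, adjusted p 1.73e-11). Tcf7, which encodes TCF-1, fell from 15101 and 14872 to 1115, 1191, 583 and 1324 (log2 change -3.90, SE 0.56, adjusted p 4.86e-06). Bach2, a repressor of effector genes, fell from 1462 and 1689 to 117, 129, 117 and 57.3 (log2 change -3.96, SE 0.51, adjusted p 1.05e-06). In each of the 3 genes the allogeneic libraries were all below day 0, which the rule that named Bach2 required. Lef1, the partner of TCF-1, fell less, from 9361 and 12508 to 3886, 3739.6, 3786 and 3714 (log2 change -1.52, SE 0.33, adjusted p 0.000748), and Foxp1, which holds T cells in quiescence, fell by 1.64 on the log2 scale (adjusted p 4.52e-07). Eomes, a T-box factor of memory and effector cells, stood at 1006 and 1253 and 1189, 1192, 857 and 1151 with overlapping groups (log2 change -0.05, SE 0.30, adjusted p 0.924). These 2 lists share Tcf7, Lef1, Bach2, Foxp1, Foxo1, Satb1 and Klf2.

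**Figure D3:**
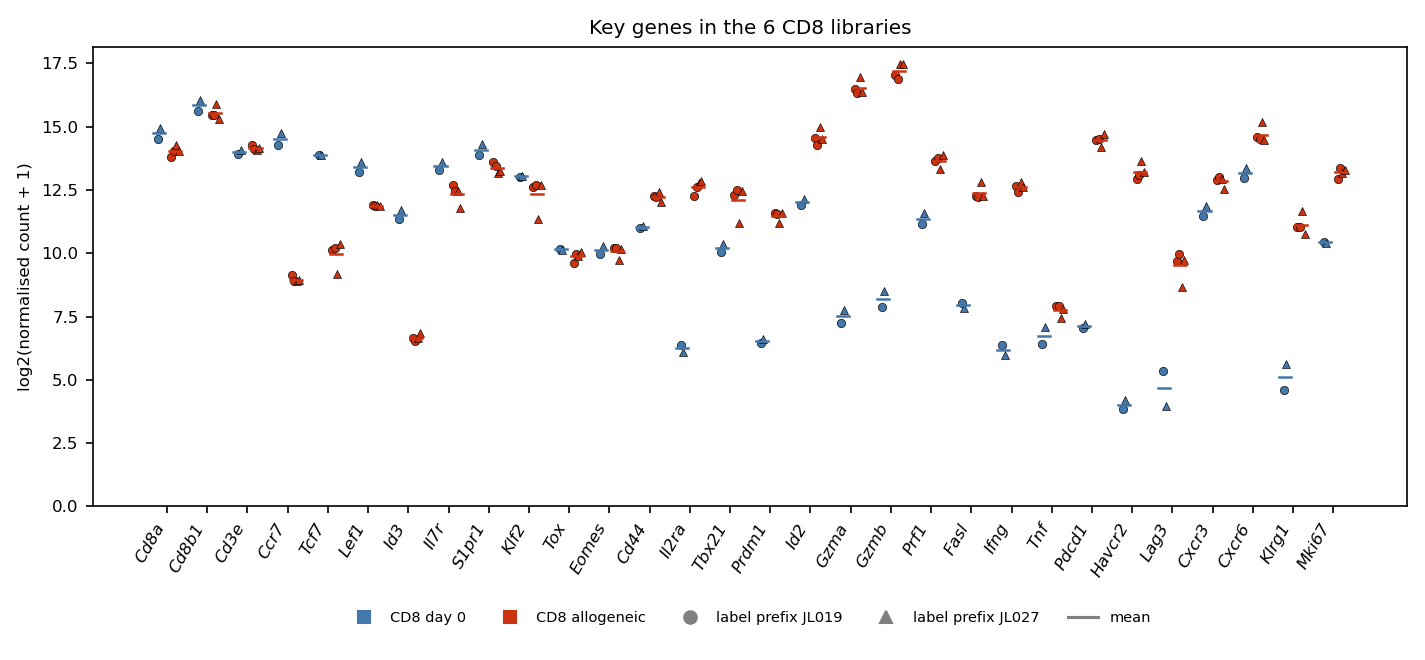
Log2(normalised count + 1) of 30 key genes in each CD8 library, day 0 in blue and allogeneic in red, circles for prefix JL019 and triangles for JL027, with a line at each group mean. Ccr7, Tcf7 and Id3 are higher at day 0, the granzymes, Ifng, Pdcd1 and Havcr2 are higher in all 4 allogeneic libraries, and Cd8b1, Cd3e and Eomes overlap.

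Transcription factors of effector and exhausted cells rose in 14 of 22 cases, with 0 lower and a median log2 change of 1.96, against 16.3% of all genes called higher. Bhlhe40 (ENSMUSG00000030103), a repressor needed for cytokine production, rose from 98.3 and 87.9 to 21893, 19285, 13067 and 19781 (log2 change 7.60, SE 0.41, adjusted p 1.63e-13). Prdm1, which encodes BLIMP-1 of terminal effector cells, rose from 87.7 and 96.8 to 3111, 2972, 2326 and 3110.0 (log2 change 4.94, SE 0.31, adjusted p 1.76e-12). Batf, an AP-1 factor induced by TCR signals, rose from 966 and 1319 to 7249, 6961, 7730.4 and 6901 (log2 change 2.67, SE 0.29, adjusted p 4.33e-08). Every allogeneic library lay above both day 0 libraries for these genes, which the rule that named Bhlhe40 and Batf required.

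The T-box factor Tbx21 (T-bet), which directs the type 1 effector program, rose from 1059 and 1333 to 4976, 5821, 2362 and 5688 (log2 change 1.90, SE 0.45, adjusted p 0.0018). JL027-1 was the lowest, and within prefix JL027 the change of 1.46 was not called (adjusted p 0.233). Id2, which supports effector survival, rose from 3811 and 4573 to 24215, 19973, 32651 and 23526 (log2 change 2.56, SE 0.28, adjusted p 5.69e-08). The other called members were Nfil3, Nr4a2, Tox2, Irf8, Irf4, Hif1a, Nr4a3, Maf and Stat4, with log2 changes between 0.87 and 3.77. Tox, a factor of exhausted cells, was not higher: it stood at 1147 and 1128 and 784, 992, 945 and 1049, all below day 0 (log2 change -0.28, SE 0.38, adjusted p 0.613). Zeb2, a factor of terminal effectors, had a log2 change of -0.76 that was not called.

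Of the 24 listed genes of granules and killing, 22 were in the table. Of these 22, 18 were called higher and 0 lower (median log2 change 2.43), against 16.3% and 14.2% of all genes, and without day 0 JL019 14 were called higher. Gzmb (ENSMUSG00000015437), the granzyme that cleaves caspases in target cells, rose from 236 and 363 to 134215, 119460.0, 179709 and 180755 (log2 change 9.01, SE 0.30, adjusted p 1.26e-17). Gzma rose from 150.3 and 217 to 92762, 83340.0, 126320.0 and 85642 (log2 change 9.04, SE 0.56, adjusted p 1.76e-12). Gzmk, a granzyme of early effector cells, rose from 64.6 and 81.7 to 10036, 8945, 14269 and 8991 (log2 change 7.14, SE 0.35, adjusted p 2.46e-14). For these 3 granzymes the lowest allogeneic library was far above the highest day 0 library.

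Another granzyme, Gzmc, had a log2 change of 7.13, from 12.6 and 9.81 to 1198, 1482, 1789 and 2611. Granzyme genes lie in families of similar sequence, so the split of reads between close members is uncertain. Prf1, the pore-forming protein that lets granzymes into the target, rose from 2249 and 3089.7 to 12837, 13881, 10276 and 15096 (log2 change 2.29, SE 0.32, adjusted p 3.26e-06). Fasl, the ligand of the death receptor FAS, rose from 258 and 231 to 4963, 4730.5, 7265 and 4936 (log2 change 4.46, SE 0.33, adjusted p 4.5e-11), highest in JL027-1. Serpinb6b and Serpinb9, serpins of cytotoxic cells, rose by log2 changes of 5.11 and 4.99. Among genes of granule transport, Rab27a, which docks granules, had a log2 change of 2.58, Unc13d 0.71 and Stxbp2 0.59. The 4 members that did not pass the test were Gzmm, Lamp1, Tnfsf10 and Ctsw, with log2 changes between -0.67 and 0.73.

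Of 19 cytokine and chemokine genes 10 were called higher and 2 lower (median log2 change 1.41), against 16.3% and 14.2% of all genes. Ifng (ENSMUSG00000055170), the main macrophage-activating cytokine of type 1 cells, rose from 81.6 and 62.6 to 6530.5, 5417, 7143 and 6275 (log2 change 6.44, SE 0.36, adjusted p 2.71e-13). Csf1, a growth factor for macrophages, rose from 7.83 and 14.2 to 799.6, 736, 285 and 809.7 (log2 change 5.71, SE 0.38, adjusted p 6.75e-12), lowest in JL027-1. Il10, an inhibitory cytokine, was listed at 0 in both day 0 libraries and at 209, 187, 252 and 197 in the allogeneic libraries. Tnf rose from 83.2 and 134 to 243, 243, 172 and 223 (log2 change 1.04, SE 0.36, adjusted p 0.0307), and it was not called without day 0 JL019 (log2 change 0.69, adjusted p 0.364) or without allogeneic JL019-1, JL019-2 or JL027-2 (adjusted p 0.0601, 0.0602 and 0.0523), within JL027 (0.484) or with the library mean as a covariate (0.274).

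The inflammatory chemokines Ccl3 and Ccl4 rose by log2 changes of 5.12 and 3.73, and Ccl1, the ligand of CCR8, went from 1.13 and 2.14 to 144, 243, 579 and 324. Csf2 had a log2 change of 5.12 and Il21 4.78. Ccl5, an inflammatory chemokine of memory and effector T cells, stood at 5898 and 7375 at day 0 and 7738, 5668, 6233 and 4625 after transfer, with overlapping groups (log2 change -0.15, SE 0.56, adjusted p 0.868). Il2, the T cell growth factor, stood at 2.50 and 8.77 and 2.49, 3.44, 3.93 and 4.29 and was not called (log2 change -0.38). The lymphotoxin genes went the other way: Ltb fell from 13245 and 15590.1 to 4281, 4799, 2719.7 and 4639.9 (log2 change -1.84, SE 0.34, adjusted p 0.000164) and Lta from 251 and 331 to 80.3, 92.8, 88.4 and 88.3 (log2 change -1.71, SE 0.34, adjusted p 0.000352).

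Inhibitory receptors, which restrain activated T cells, rose in 11 of 16 cases with 0 lower (median log2 change 1.88), against 16.3% and 14.2% of all genes. Havcr2 (ENSMUSG00000020399), which encodes TIM-3, rose from 13.2 and 17.3 to 7813, 8809, 12726 and 9538 (log2 change 9.21, SE 0.35, adjusted p 1.81e-16). Pdcd1, which encodes PD-1, rose from 131 and 147 to 22468, 23496, 18997 and 26576 (log2 change 7.34, SE 0.34, adjusted p 1.29e-14). Tigit rose from 87.4 and 45.1 to 4193, 4358, 3092 and 3999.8 (log2 change 5.93, SE 0.34, adjusted p 2.83e-13). For each of the 3 the groups lay far apart. Lag3, which binds class II molecules, rose from 40.003 and 14.8 to 836, 1010.0, 400.1 and 855 (log2 change 4.85, SE 0.39, adjusted p 1.79e-10) and was lowest in JL027-1. Ctla4, which competes for the ligands of CD28, rose from 95.2 and 157 to 17152, 11921, 18092 and 16971 (log2 change 7.005, SE 0.50, adjusted p 1.97e-11). Entpd1, Cd244a, Cd160, Cd200r1, Cd200 and Lair1 were also called higher, with log2 changes from 0.84 to 3.87. Cd5, Btla, Cd101, Vsir and Cd274 were not called, with log2 changes between -0.54 and -0.16.

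Most costimulatory receptors were higher too. Of the 15 listed genes 9 were called higher, against 16.3% of all genes, and 0 lower (median log2 change 1.12), and without day 0 JL019 6 were called. Tnfrsf4 (OX40) rose from 37.4 and 57.5 to 3885, 4072, 6099 and 5661 (log2 change 6.67, SE 0.40, adjusted p 8.17e-13). Tnfrsf9 (4-1BB) rose from 632 and 1000.3 to 14533, 15734, 19821 and 18872 (log2 change 4.43, SE 0.31, adjusted p 1.92e-11). Slamf1, an adhesion and signalling receptor, rose from 336 and 379 to 2526, 2450.0, 3256 and 2678 (log2 change 2.92, SE 0.34, adjusted p 1.86e-07). Cd28, the receptor for B7 molecules, rose less, from 3767 and 4776 to 8414, 7544, 10522 and 6794 (log2 change 0.95, SE 0.32, adjusted p 0.0252). Cd27 was below day 0 in every allogeneic library but was not called (log2 change -0.53, SE 0.29, adjusted p 0.164).

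Of 26 receptors for chemokines and adhesion 11 were called higher and 4 lower (median log2 change 0.68), against 16.3% and 14.2% of all genes. Cxcr6, a receptor of effector and tissue-resident T cells, rose from 7925 and 10505 to 24422, 23238, 36819.8 and 22739 (log2 change 1.52, SE 0.25, adjusted p 2.47e-05). Cxcr3, the receptor for interferon-induced chemokines, rose from 2862 and 3712 to 7683, 8218, 7914 and 5979 (log2 change 1.18, SE 0.24, adjusted p 0.000384). JL027-1 had the highest Cxcr6. Ccr2 and Ccr8 had log2 changes of 2.74 and 5.52, and Ccr8 reached 423, 517, 684 and 699.8 from 13.3 and 9.73.

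Among adhesion genes, Cd44, the hyaluronan receptor used as a marker of antigen experience, rose from 2016 and 2181 to 4931, 4713, 5488 and 4176 (log2 change 1.196, SE 0.24, adjusted p 0.000352). Itga1, the collagen-binding integrin chain of tissue-resident cells, rose from 96.8 and 57.6 to 1162, 1136, 1357 and 1289 (log2 change 4.03, SE 0.47, adjusted p 1.61e-07). The integrin chain that binds epithelial E-cadherin, Itgae, fell instead, from 2337 and 3212 to 66.4, 89.3, 51.9 and 56.6 (log2 change -5.39, SE 0.42, adjusted p 1.49e-10). Ccr9, the gut-homing receptor, fell from 5415 and 7588 to 626, 843, 823 and 424 (log2 change -3.29, SE 0.38, adjusted p 1.51e-07). With Ccr7 and Cxcr5, which had log2 changes of -5.56 and -4.53, these make up the 4 lower genes. Cxcr5 is also expressed by B cells, whose markers were lower after transfer.

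Of 23 cytokine receptors 9 were called higher and 9 lower (median log2 change -0.44), against 16.3% and 14.2% of all genes, and without day 0 JL019 9 were called higher and 5 lower. Il2ra (ENSMUSG00000026770), which completes the high-affinity interleukin-2 receptor, rose from 82.3 and 67.7 to 4878, 6269.6, 7084 and 7397 (log2 change 6.39, SE 0.40, adjusted p 1.76e-12). Il12rb2, the signalling chain for interleukin-12, rose from 115 and 153 to 5949, 6798, 7705 and 6949 (log2 change 5.67, SE 0.61, adjusted p 4.47e-08). Il2ra is also a marker of regulatory T cells, and their factor Foxp3 went from 9.68 and 6.82 to 334, 453, 103 and 335. The share of this signal that came from other cells was not tested. The interferon-gamma receptor chains moved in opposite directions: Ifngr1, which binds the ligand, rose from 10509.5 and 14248 to 44868, 36576, 51706 and 41360.2 (log2 change 1.82, SE 0.21, adjusted p 2.05e-07), and Ifngr2, which signals, fell from 922 and 1248 to 22.3, 43.2, 53.0 and 49.5 (log2 change -4.71, SE 0.42, adjusted p 1.78e-09). Tgfbr3, a coreceptor for TGF-beta, fell from 718 and 785 to 19.9, 14.2, 14.2 and 11.4 (log2 change -5.59, SE 0.76, adjusted p 2.32e-06).

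Killer lectin-like receptors, shared with natural killer (NK) cells, were called higher in 5 of 14 cases and lower in 3 (median log2 change 0.92), against 16.3% and 14.2% of all genes. Klrg1 (ENSMUSG00000030114), a marker of short-lived effectors, rose from 23.2 and 48.5 to 2089.7, 2117, 3265 and 1748 (log2 change 6.02, SE 0.43, adjusted p 2.76e-11). Klrc1 (NKG2A) rose from 763 and 1014 to 19078, 18944, 30522 and 20354 (log2 change 4.63, SE 0.30, adjusted p 3.99e-12). Klrk1 (NKG2D) rose from 548 and 830.1 to 11369, 11364, 18424 and 10512 (log2 change 4.22, SE 0.54, adjusted p 7.95e-07). Both Klrc1 and Klrk1 were highest in JL027-1. The 3 lower genes, Klra1, Klra6 and Klra9, belong to the Ly49 family of NK cells, whose members are similar in sequence, and fell to 5.86, 3.25, 7.66 and 0.609 for Klra1 from 85.1 and 129.8. With a pseudocount of 0.1 limma called neither Klra9 (adjusted p 0.0772) nor Klra6 (0.0941). Fits with a single day 0 library also lost calls of all 3 genes. Klra9 was not called without day 0 JL019, without day 0 JL027 or within JL027, Klra6 within either prefix, and Klra1 within JL019. The 8 NK cell markers did not move one way, with 2 called higher and 3 lower, and their sum, mostly from Nkg7, which cytotoxic T cells also express, was 26012 and 33807 at day 0 and 66501 to 99075 after transfer. Of the lower ones Ncr1 stood at 85.2 and 91.5 and 6.49, 3.37, 8.67 and 1.72, and Klra4 at 246 and 279.7 and 2.49, 2.29, 1.96 and 2.57. The higher ones were Nkg7, from 23919 and 31225 to 63136, 66822, 95651 and 63312, and Fcer1g, from 247 and 321 to 1682, 1557, 1779 and 1533, and neither was called without day 0 JL019. The part of NK cells in these values was not tested.

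All 28 mitotic genes were called higher, against 16.3% of all genes, with log2 changes between 2.08 and 3.58 and a median of 2.80, and all 28 stayed called without day 0 JL019. Of 29 DNA replication genes 26 were called higher, against the same 16.3%, and 0 lower (median log2 change 1.61), and 20 without day 0 JL019. Ccnb2 (ENSMUSG00000032218), a cyclin of mitosis, rose from 994 and 1003 to 11834, 10522, 14983 and 10849 (log2 change 3.58, SE 0.24, adjusted p 6.75e-12). Tpx2, which builds the spindle, rose from 612 and 654 to 5632, 6819, 7801 and 6607 (log2 change 3.40, SE 0.24, adjusted p 1.59e-11). Mki67, the proliferation antigen, rose from 1386 and 1361 to 7783, 10680.5, 9130.1 and 10079 (log2 change 2.77, SE 0.30, adjusted p 4.64e-08). The day 0 libraries were not at 0 for these genes and also held the highest erythroid marker sums of the 6, whose part in these values was not tested.

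Among replication genes, Lig1, the ligase that joins Okazaki fragments, rose from 628 and 547 to 3451, 5257, 2456 and 4642 (log2 change 2.69, SE 0.26, adjusted p 9.72e-09). Rrm2, which limits the supply of deoxynucleotides, rose from 2875 and 2794 to 13390.3, 16099, 24248 and 18381 (log2 change 2.63, SE 0.24, adjusted p 2.64e-09). Pole, a replicative polymerase, rose from 357 and 420.1 to 1684, 1976, 1480.0 and 1877 (log2 change 2.17, SE 0.20, adjusted p 3.24e-09). The MCM helicase subunits had log2 changes from 1.34 for Mcm2, which was not called, to 1.99 for Mcm3, and the separate replication factor Mcm10 had 2.16. Ung and Cdt1 were the other replication genes not called, with log2 changes of -0.13 and 0.78.

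Promoter motifs of the cell cycle were counted in both lists. The E2F motif in 4 spellings, TTTCCCGC, TTTGGCGC, TTTCGCGC and TTTGCCGC, and the cell cycle homology region TTTGAA, which is bound by complexes that restrain mitotic genes, were searched on both strands. RefSeq promoter windows of build GRCm38.p6, from 250 bases before to 50 after the start, matched 24 of the 29 replication genes and 23 of the 28 mitotic genes. An E2F motif was present for 10 of 24 replication genes (41.7%) and 3 of 23 mitotic genes (13%), against 4.29% of the 11718 genes of the RNA table with a window. TTTGAA was present for 3 of 24 replication genes (12.5%) and 16 of 23 mitotic genes (69.6%), against 15.9%. Spellings of the E2F motif can overlap on opposite strands. These matches are a description of letters, not of binding. The 120 bases before the start are shown for the called genes with the lowest p that hold their list's motif there, with motifs in capitals, as examples of each motif.
Mcm6, replication helicase, chr1:128359706-128359825, minus strand: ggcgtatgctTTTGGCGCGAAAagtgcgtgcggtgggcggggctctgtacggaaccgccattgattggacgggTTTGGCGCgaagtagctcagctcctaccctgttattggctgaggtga
Orc1, origin recognition, chr4:108579334-108579453, plus strand: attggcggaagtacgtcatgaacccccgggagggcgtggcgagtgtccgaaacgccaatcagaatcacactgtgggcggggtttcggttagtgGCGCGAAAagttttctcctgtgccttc
Top2a, topoisomerase, chr11:99024190-99024309, minus strand: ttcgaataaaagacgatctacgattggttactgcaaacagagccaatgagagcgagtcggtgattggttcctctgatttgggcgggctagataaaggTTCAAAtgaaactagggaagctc
Cdc20, activator of the anaphase ligase, chr4:118437344-118437463, minus strand: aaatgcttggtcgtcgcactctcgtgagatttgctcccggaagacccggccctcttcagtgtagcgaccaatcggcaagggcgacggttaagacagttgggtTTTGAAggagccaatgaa
Kif15, spindle motor, chr9:122950961-122951080, plus strand: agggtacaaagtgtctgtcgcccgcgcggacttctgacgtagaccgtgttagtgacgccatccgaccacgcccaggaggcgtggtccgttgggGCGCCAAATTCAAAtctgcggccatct

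The genes of these promoters differed in size of change. Mcm6, whose window holds 3 E2F matches, some of which overlap, had a log2 change of 1.42 (SE 0.35, adjusted p 0.00295) and Orc1 of 1.34 (SE 0.35, adjusted p 0.00511). Top2a, which untangles chromosomes, rose from 2578 and 2327 to 9399, 12545, 17608 and 13292 (log2 change 2.40, SE 0.20, adjusted p 4.8e-10). Cdc20 and Kif15 had log2 changes of 2.90 and 2.62. Kif15 is the only one of the 5 printed windows with both motifs.

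Of 19 cell cycle inhibitors and quiescence genes 4 were called higher and 3 lower (median log2 change -0.03), shares near the 16.3% and 14.2% of all genes. Cdkn1a (p21), an inhibitor induced by p53 and by mitogens, rose from 69.6 and 16.1 to 692, 636, 393 and 897 (log2 change 4.18, SE 0.60, adjusted p 4.72e-06). Cdkn2a was listed at 0 in both day 0 libraries and at 19.3, 34.6, 22.2 and 22.2 after transfer. Btg1, an antiproliferative gene abundant in resting lymphocytes, fell from 25149.7 and 35534 to 6228, 6339, 6526 and 5519 (log2 change -2.28, SE 0.22, adjusted p 9.64e-09). Slfn5 fell by 1.62 on the log2 scale. Cdkn1b, the p27 inhibitor, was not called (log2 change -0.67, SE 0.38, adjusted p 0.181).

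Most glycolysis genes rose. Of 20 glycolysis genes 15 were called higher and 2 lower (median log2 change 1.72), against 16.3% and 14.2% of all genes. Gapdh (ENSMUSG00000057666) rose from 15124 and 21716 to 108279, 93819, 111191 and 113727 (log2 change 2.55, SE 0.25, adjusted p 6.25e-09). Pgk1 rose from 3528 and 4723 to 14758, 14235, 19095 and 16976 (log2 change 1.98, SE 0.19, adjusted p 4.93e-09). Slc16a3, which exports lactate, rose from 54.5 and 55.3 to 2081, 1281, 965 and 2312 (log2 change 4.80, SE 0.47, adjusted p 9.66e-09). The 2 lower genes were Pdk1, the kinase that keeps pyruvate from the mitochondrion, which fell from 5396 and 6616 to 1709.6, 1176, 1610.1 and 1634 (log2 change -1.98, SE 0.39, adjusted p 0.000291), and the muscle-type phosphofructokinase Pfkm (log2 change -1.24, SE 0.34, adjusted p 0.00644), whereas the platelet-type Pfkp had 2.12 (SE 0.31, adjusted p 6.18e-06). Pfkm was not called without day 0 JL027 (adjusted p 0.0506).

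Of 20 genes of the citric acid cycle and respiratory chain 13 were called higher, against 16.3% of all genes, and 0 lower (median log2 change 0.88), with 8 higher without day 0 JL019 and 7 after quantile normalisation. The ATP synthase subunit Atp5b rose from 29882 and 37771 to 59919.7, 58421, 65585 and 68705 (log2 change 0.91 (SE 0.17, adjusted p 0.000186); adjusted p 0.0724 after quantile normalisation). Cox5a, of complex IV, had a log2 change of 1.70 while Sdha, of complex II, was not called (-0.18). Supply genes for one-carbon units, nucleotides and amino acids had 11 of 22 called higher, against 16.3% of all genes, and 0 lower (median 0.71), and 5 without day 0 JL019. The serine synthesis enzyme Psat1 rose from 1316 and 1486 to 5050.0, 6273, 9017 and 7264 (log2 change 2.27, SE 0.27, adjusted p 1.86e-07), and Phgdh, the first enzyme of that route, from 3524 and 4953 to 10666, 12499.7, 9132 and 13428 (log2 change 1.44, SE 0.23, adjusted p 1.8e-05). Mthfd2, the mitochondrial folate enzyme, had a log2 change of 1.51 (SE 0.18, adjusted p 3.73e-07).

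Of 22 lipid genes 3 were called higher and 5 lower (median log2 change 0.07), against 16.3% and 14.2% of all genes. Without day 0 JL019 2 were higher and 3 lower, and without day 0 JL027 1 was higher and 3 lower. The cholesterol exporters fell: Abca1 from 471 and 707 to 23.8, 18.8, 6.63 and 16.6 (log2 change -5.17, SE 0.68, adjusted p 1.33e-06) and Abcg1 from 952 and 994 to 226, 166, 98.0 and 166 (log2 change -2.62, SE 0.30, adjusted p 1.33e-07). Sqle, an enzyme of cholesterol synthesis, was called (log2 change 1.10, SE 0.40, adjusted p 0.0402) but not when day 0 JL019 (adjusted p 0.239), day 0 JL027 (0.0875) or allogeneic JL019-1, JL019-2 or JL027-2 (0.0634, 0.0725 and 0.0905) was left out.

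Of 26 interferon-stimulated genes 5 were called higher and 7 lower (median log2 change -0.33), against 16.3% and 14.2% of all genes, and after quantile normalisation 5 were higher and 12 lower. Usp18, which dampens type I interferon signals, fell from 1919.7 and 2280.1 to 872, 831, 858 and 580.3 (log2 change -1.43, SE 0.24, adjusted p 4.18e-05). Ifi44 fell from 150.1 and 159.6 to 11.9, 32.1, 51.8 and 24.5 (log2 change -2.50, SE 0.47, adjusted p 0.000197). Gbp3, a GTPase induced by interferon-gamma, rose from 804 and 1086 to 2756, 3069.7, 3784 and 2820.4 (log2 change 1.72, SE 0.31, adjusted p 0.000107). Zbp1, a nucleic acid sensor, rose by 1.00 on the log2 scale. Mx1 had a log2 change of 1.54 (SE 0.37, adjusted p 0.00249), with an adjusted p of 0.0612 without day 0 JL027. Without that library 4 genes of this list were called higher and 3 lower, and without day 0 JL019 3 and 7.

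Of 19 apoptosis genes, which include survival factors and promoters of cell death, 8 were called higher and 1 lower (median log2 change 0.84), against 16.3% and 14.2% of all genes. The lower gene was Bcl2, the survival factor of resting T cells, which fell from 5645 and 6781 to 1913, 2095, 1857 and 2009.7 (log2 change -1.65, SE 0.27, adjusted p 3.54e-05). The related survival factor Bcl2a1d rose from 135 and 107 to 3161, 3094, 5039.7 and 3555 (log2 change 4.91, SE 0.37, adjusted p 7.31e-11), although close copies of this gene make its reads uncertain. Pmaip1 (NOXA), which promotes apoptosis, rose from 259 and 389 to 2967, 2479.5, 4329.6 and 3487 (log2 change 3.35, SE 0.36, adjusted p 3.77e-08). Bcl2l11 (BIM), which opposes BCL2, had a log2 change of 1.33.

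Calcium-binding and cytoskeletal genes of effector cells rose in 17 of 20 cases, with 1 lower and a median log2 change of 2.17, against 16.3% and 14.2% of all genes. Lgals3 (ENSMUSG00000050335), galectin-3, rose from 174 and 224 to 27737, 24312, 26649 and 24079.6 (log2 change 7.01, SE 0.57, adjusted p 3.01e-10). S100a4 rose from 154 and 233 to 15735, 13712, 16343 and 11993 (log2 change 6.24, SE 0.39, adjusted p 1.76e-12). Anxa2 rose from 1705 and 2364 to 58320.1, 56536, 73009.9 and 54112 (log2 change 4.90, SE 0.28, adjusted p 2.98e-13). Vim, the intermediate filament vimentin, had a log2 change of 3.11 (SE 0.19, adjusted p 8.8e-13). The lower gene was Lmna, the nuclear lamin A gene, from 584 and 580.0 to 57.4, 75.1, 50.3 and 84.6 (log2 change -3.13, SE 0.39, adjusted p 4.65e-07). Several of these genes are also expressed by myeloid cells, whose 14 markers summed to 4196 and 5468 at day 0 and to 6605 to 10857 after transfer. S100a8 and S100a9 of neutrophils were called higher, with S100a8 at 215 and 427 and 2343, 3251, 4559.5 and 4473, while Csf1r and Adgre1 of macrophages were called lower. The part of myeloid cells in this list was not tested.

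Of 23 genes of the TCR machinery 1 was called higher and 4 lower (median log2 change -0.01), against 16.3% and 14.2% of all genes. Without any 1 of the 6 libraries 1 or 2 were lower, with 1 only without day 0 JL027, and 2 were lower after median centring, 1 with the library mean as a covariate, 0 and 1 within JL019 and JL027, and 7 in a fit on the 6 libraries alone. Ptpn22, a phosphatase that limits TCR signals, rose from 8439.8 and 9773 to 25649, 21671, 25478 and 20757 (log2 change 1.36, SE 0.32, adjusted p 0.00189). Egr2 and Egr3, factors induced by TCR signals and tied to unresponsiveness, were lower, with Egr3 at 93.1 and 103 and 26.0, 22.4, 12.6 and 17.2 (log2 change -2.31, SE 0.63, adjusted p 0.00629). Neither was called with the library mean as a covariate (adjusted p 0.127 for Egr3 and 0.0656 for Egr2), after quantile normalisation (0.0652 and 0.0874) or within JL019 (0.183 and 0.215), Egr3 was not called within JL027 (0.0859), and Egr2 was not called without day 0 JL027 (0.0573). Dgka, which removes diacylglycerol, had a log2 change of -1.16 (SE 0.43, adjusted p 0.0402) that was not called without any 1 of the 6 libraries (adjusted p 0.0535 to 0.173), after median centring (0.0619), with the covariate (0.600) or within a prefix. Zap70, Lck, Lat, Fyn and the CD3 genes were not called, and their log2 changes lay between -0.01 and 0.87.

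**Figure D4:**
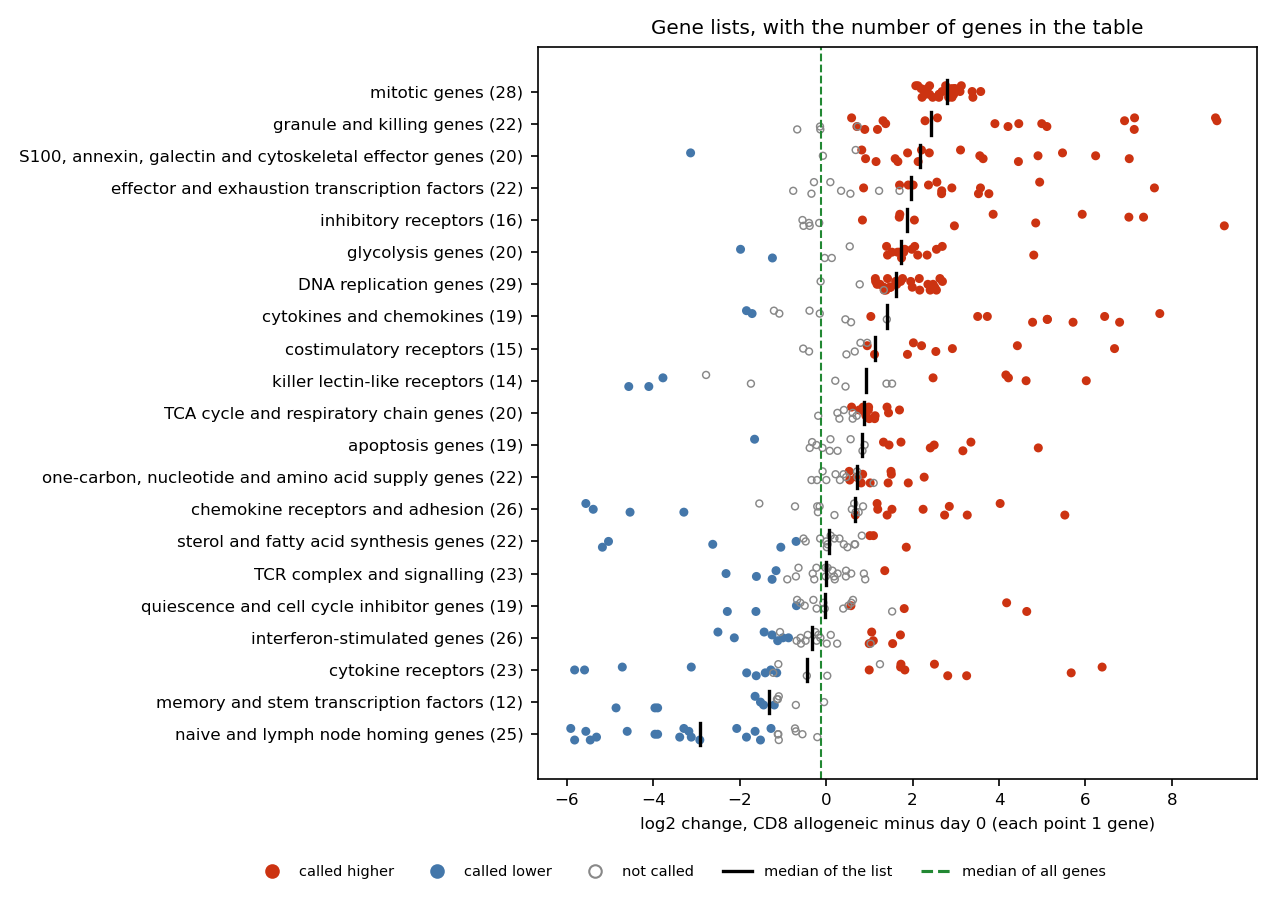
Log2 change of each gene (points) in the 21 gene lists, sorted by median (black line), with called genes filled in red (higher) or blue (lower), uncalled genes open, and the median of all genes, -0.13, as a dashed line. The mitotic list lies wholly to the right and the naive list wholly to the left, while cytokine receptors and chemokine receptors spread to both sides.

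Outside the lists, the rising genes with the lowest p were Ncald, Pimreg, Serpina3g, Smpdl3b, Tubb6, Tcf19, Bspry and Zbtb32. Zbtb32, a zinc finger repressor of lymphocytes, rose from 54.3 and 32.4 to 4564, 4322, 3539.7 and 4029 (log2 change 6.58, SE 0.39, adjusted p 8.05e-13). Pimreg, a mitotic gene, rose from 37.1 and 32.5 to 1044, 968, 931 and 979.8 (log2 change 4.78, SE 0.23, adjusted p 2.46e-14). Tubb6, a beta tubulin, rose from 56.8 and 47.4 to 3401, 3075, 3079 and 4288 (log2 change 6.02, SE 0.33, adjusted p 2.55e-13). All 4 allogeneic libraries were above day 0 in each, which the rule that named these genes required. Among the largest rises were Serpinb1b, listed at 0 and 0.801 at day 0 and at 1128, 975, 1557 and 1198 after transfer, and Gldc, the glycine cleavage enzyme, which went from 11.4 and 1.92 to 2355, 2180.0, 2212 and 2608 (log2 change 8.60, SE 0.98, adjusted p 1.32e-07).

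The falling genes outside the lists with the lowest p were Selenop, Rnf122, Ssbp2, Tdrp, Rgs10, Atp1b1, Ampd1 and H2-Ob. Selenop, which encodes the selenium carrier, fell from 5474 and 8304 to 379.8, 409, 537 and 302 (log2 change -4.08, SE 0.23, adjusted p 2.71e-13). Rgs10, a regulator of G protein signals, fell from 2394 and 3029 to 122, 164, 205 and 119 (log2 change -4.17, SE 0.30, adjusted p 2.76e-11). Tdrp fell from 3120.2 and 4322 to 49.3, 35.1, 37.2 and 39.7 (log2 change -6.49, SE 0.43, adjusted p 5.24e-12). H2-Ob, a class II chaperone of B cells, fell from 1252 and 1871 to 11.8, 7.05, 22.4 and 7.29 (log2 change -7.01, SE 0.56, adjusted p 1.9e-10), beside the lower B cell markers.

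Among the largest falls were genes of other cell types and genes listed at 0 after transfer. Jchain, the joining chain of secreted antibodies, fell from 18246 and 29108 to 42.1, 37.1, 75.1 and 74.5 (log2 change -8.70, SE 1.04, adjusted p 2.91e-07), and Igkc from 41486 and 64253 to 1019.9, 1061, 1624 and 1112. Smim1, an erythroid membrane protein, stood at 446 and 576 and 0, 7.29, 8.75 and 0.189, and the erythroid enzyme Car1 at 15278 and 20531 and 107, 68.4, 500.3 and 232. Dntt, the template-free polymerase of lymphocyte precursors, stood at 219 and 234 and 0, 1.18, 0 and 0.801. Sh3tc2 stood at 233 and 205 and was listed at 0 in all 4 allogeneic libraries. Exosc6, a subunit of the RNA exosome that all cells use, stood at 532 and 754 and was listed at 0, 0, 224 and 0. It was not called in a fit on the 6 libraries alone (log2 change -7.36, adjusted p 0.0622). Whether a listed value of 0 is a true absence of the transcript was not tested.

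The 4 allogeneic CD8 libraries were next set against the 3 syngeneic CD8 libraries, from cells moved into hosts of their own strain. limma called 3524 of 16741 genes (21.1%), 1741 higher (10.4%) and 1783 lower (10.7%) in allogeneic cells, and without syngeneic JL027 1067 were lower. Naive genes were lower than in syngeneic cells in 16 of 25 cases and higher in 1, inhibitory receptors higher in 9 of 16 and lower in 2, and mitotic genes higher in 22 of 28 and lower in 0. Ccr7 stood at 10859, 8998 and 13757 in syngeneic cells, an allogeneic minus syngeneic log2 difference of -4.47 (SE 0.42, adjusted p 4.83e-09). Pdcd1 stood at 143, 135 and 190.1 (difference 7.19, SE 0.30, adjusted p 1.82e-15). Gzmb stood at 16202, 11542 and 21999 (difference 3.24, SE 0.27, adjusted p 5.4e-10). The day 0 levels of Ccr7 and Pdcd1 were 20003 and 27448 and 131 and 147, and Gzmb in syngeneic cells lay between the groups.

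Tcf7 and Id3, transcription factors of the naive state, were also lower than in syngeneic cells. Tcf7 stood at 11003, 13003 and 8215 in syngeneic cells (difference -3.39, SE 0.49, adjusted p 8.49e-06) and Id3 at 3130.4, 3273 and 4945 (difference -5.19, SE 0.30, adjusted p 8.47e-13). Ifng stood at 3581, 2067 and 1042, between day 0 and allogeneic levels (difference 1.67, SE 0.32, adjusted p 0.000289). Gapdh stood at 76472, 58643 and 96002 and was not called (difference 0.50, SE 0.22, adjusted p 0.107). For glycolysis 7 of 20 genes were called higher and 1 lower, against 10.4% and 10.7% of all genes. Interferon-stimulated genes were lower in allogeneic than in syngeneic cells in 19 of 26 cases, against 10.7% of all genes, and higher in 2. Usp18 stood at 5688, 6165 and 4046 (difference -2.75, SE 0.21, adjusted p 1.56e-10). Cxcr3 was lower in allogeneic cells, against 13131, 11096 and 17546 (difference -0.89, SE 0.21, adjusted p 0.00268), although it was higher than at day 0. Myeloid markers summed to 38083, 51878 and 62001 in the syngeneic libraries, above the allogeneic range. B cell markers, at 21543 to 29020 against 11679 to 14160, and CD8 T cell markers, at 217890 to 413090 against 160260 to 217740, were also above it, and the part of these markers in these differences was not tested.

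The same transition in CD4 cells was tested against that in CD8 cells with an interaction term, which shares no library between its arms. limma called 161 genes (0.962%), 48 with a more positive and 113 with a more negative change in CD8 cells, and 1363 genes had an unadjusted p under 0.05. Centring each library on its median gave 65 more positive and 58 more negative genes, and quantile normalisation 96 and 124. The labels give CD4 and CD8 libraries the same recipient numbers, and with the recipient as a replicate block 256 genes were called. Leaving out any 1 of the 4 day 0 libraries left 69 to 84 genes: 69 without CD4 JL019, 71 without CD4 JL027, 84 without CD8 JL019 and 81 without CD8 JL027. Erythroid markers summed to 6930 and 6221 in the CD4 day 0 and 864, 810.2, 9321 and 11391 in the CD4 allogeneic libraries, against 61002 and 72894 in CD8 day 0 libraries, and B cell markers to 67473 and 56544 and then 14721 to 18161. Their part in the difference was not tested.

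Several receptors rose more in CD8 cells, from lower day 0 levels than in CD4 cells. Il2ra in CD4 cells went from 1981 and 1923 to 5079, 5462, 5783 and 5686, and the CD8 change exceeded the CD4 change by a log2 value of 4.89 (SE 0.56, adjusted p 1.3e-05). Pdcd1 in CD4 cells went from 1015 and 941 to 8702, 10570.1, 8619 and 10422 (CD8 minus CD4 difference 4.06, SE 0.49, adjusted p 2.26e-05). Nrp1, a coreceptor for semaphorins, rose from 113 and 122 to 1586, 1836, 1452 and 1723 in CD8 cells and from 1354 and 1221 to 3327, 3677, 2989 and 2992 in CD4 cells (difference 2.47, SE 0.32, adjusted p 5.35e-05). For Il2ra the CD4 and CD8 levels overlapped after transfer, and at day 0 they did not. Ckb, the brain-type creatine kinase, fell in CD4 cells from 1416 and 1208 to 199, 209, 272 and 358 (log2 change -2.37) and rose in CD8 cells from 132 and 135 to 229, 228, 213 and 331 (difference 3.25, SE 0.47, adjusted p 0.000217). Its CD8 change was near the threshold (adjusted p 0.0433) and was not called without any of 5 libraries, all but allogeneic JL027-1.

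Genes with a more negative change in CD8 cells included the homing and adhesion genes Ccr9 and Itgae. Ccr9 rose in CD4 cells from 729.9 and 657 to 3577, 3189.6, 3741 and 2694 and fell in CD8 cells (difference -5.53, SE 0.54, adjusted p 1.06e-06). Itgae in CD4 cells stood at 122 and 144 and 324, 226, 147 and 199.7, below the CD8 day 0 level, and was not called there (log2 change 0.70); the difference was -6.08 (SE 0.60, adjusted p 1.06e-06). Scart1, a scavenger receptor gene, rose in CD4 cells from 13.3 and 9.10 to 239, 172, 108 and 152 and fell in CD8 cells from 412 and 439.8 to 142, 91.9, 77.0 and 159 (difference -5.67, SE 0.70, adjusted p 2.56e-05). Scin, an actin-severing protein, showed the same pattern (difference -4.47, SE 0.58, adjusted p 5.35e-05), with 365 and 322 and 51.1, 53.2, 93.9 and 84.7 in CD8 cells and 355 and 289.6 and 1627, 1400.0, 1206 and 1533 in CD4 cells. The fall of Scart1 in CD8 cells was not called by limma with the library mean as a covariate (log2 change -0.98, adjusted p 0.092). Sytl3, a vesicle docking protein, rose in both, from 1138 and 1200.3 to 7910.2, 6617, 6236 and 6544 in CD8 cells and from 213 and 205 in CD4 cells to 8403, 6908, 5312 and 6514, so that the groups overlapped after transfer (difference -2.45, SE 0.31, adjusted p 3.97e-05).

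**Figure D5:**
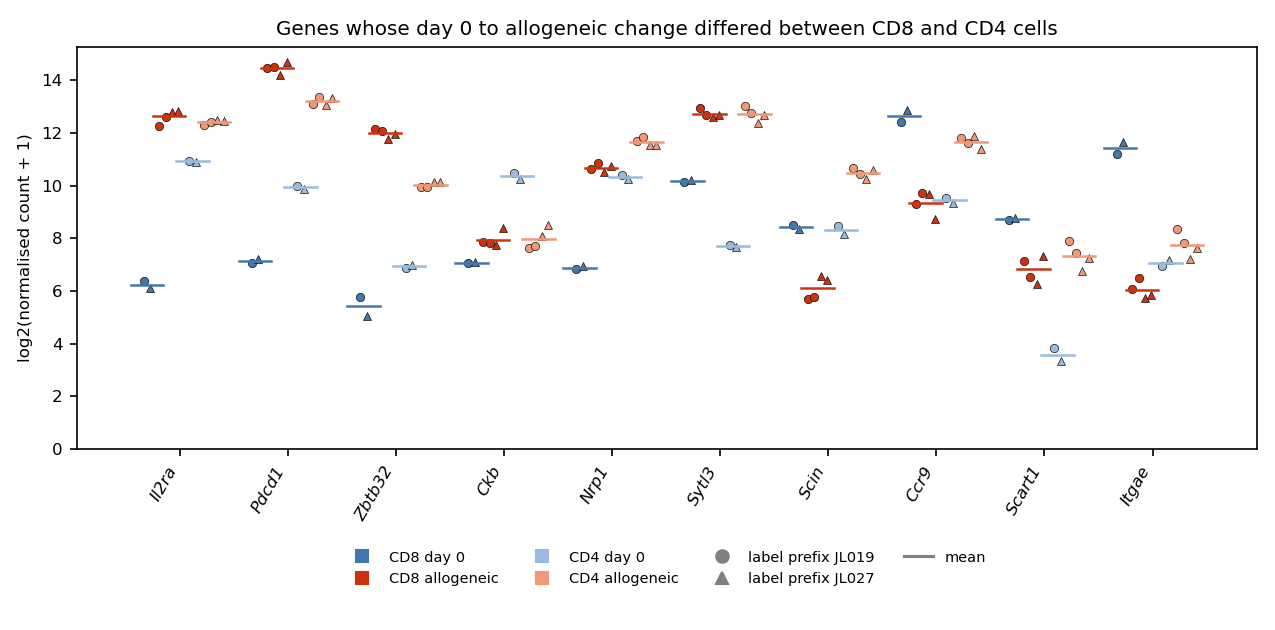
Log2(normalised count + 1) of the 10 genes, 5 in each direction, with the lowest interaction p among those also called in CD8 cells, in CD8 (dark) and CD4 (light) libraries at day 0 (blue) and in allogeneic recipients (red), circles for prefix JL019 and triangles for JL027, lines at group means. Ccr9 falls in CD8 and rises in CD4 libraries, and Il2ra starts lower in CD8 than in CD4 libraries and ends at overlapping levels.

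T cell receptor sequences were read from CD8 cells of the same groups. Beta-chain (TRB) reads numbered 13193 and 21858 at day 0 and 16571, 11487, 47997 and 20803 in the allogeneic libraries. A clonotype is a V gene, a J gene and a CDR3 amino acid sequence. At an equal 11487 reads, day 0 libraries held 9039 and 9371 clonotypes and allogeneic libraries 2765, 3401, 2773 and 2682. Clonality, which is 0 for an even repertoire and 1 for a single clone, was 0.0110 and 0.00961 at day 0 and 0.167, 0.141, 0.167 and 0.175 after transfer. The means were 0.0103 ± 0.0009995 (SD, n = 2) and 0.162 ± 0.0147 (SD, n = 4). Groups did not overlap, and the two-sided exact permutation test gave p = 0.133, the smallest that 4 against 2 libraries allow.

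The most frequent clonotypes held more of the reads in the allogeneic libraries than at day 0. The 10 most frequent clonotypes held 0.663% and 0.720% of reads at day 0 and 18.2%, 14.4%, 17.2% and 19.2% after transfer. The largest single TRB clonotype held 2.63% (Wilson 95% interval 2.39 to 2.88), 2.72% (2.43 to 3.03), 3.78% (3.62 to 3.96) and 3.39% (3.16 to 3.65) of the allogeneic libraries and at most 0.124% (0.0849 to 0.180) of a day 0 library. Alpha chains (TRA) showed the same order, with clonality of 0.0406 and 0.0348 against 0.219, 0.206, 0.274 and 0.216 at 6870 reads, and the largest TRA clonotype of JL027-1 held 18.1% of reads. PCR reads are not independent molecules, so these intervals cover counting error only.

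Few clonotypes were shared between most pairs of recipients. The Morisita-Horn overlap of TRB, 0 for none and 1 for identical, lay between 0.00104 and 0.00203 for 5 of the 6 pairs of allogeneic libraries. For the JL027-1 and JL027-2 pair it was 0.126, with 726 shared clonotypes, 10.5% and 18.6% of each. Allogeneic and day 0 libraries overlapped at 0.00366 to 0.00796, also within a prefix, and the 2 day 0 libraries at 0.123 with 715 shared clonotypes. For TRA the 2 day 0 libraries overlapped at 0.616 with 1043 shared clonotypes. Allogeneic and day 0 libraries overlapped at 0.00635 to 0.0376 for TRA, and the JL027-1 and JL027-2 pair at 0.193. The labels do not say which libraries shared donors.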

How the data were processed

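RNA values are DESeq2-normalised read counts of the authors, a signal with no recoverable reads, deposited in 1 table with 16741 genes; kallisto, FastQC 0.11.7 and GRCm38 are named per the submitters' processing notes. Raw TCR read counts were deposited by the authors per clonotype after nested PCR, per the labels' protocols. Since the RNA values were not raw counts, the count test foreseen for them was replaced by limma 3.58.1 (trend, robust; R 4.3.3) on log2(value + 1), with 10 group means over all 31 libraries and Benjamini-Hochberg adjustment at 0.05. A mean of at least 1 was required and removed no gene. The fit was tested on simulated data with known changes. Clonality was computed in Python 3.11.15 at equal reads and compared by an exact permutation test.

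Genes named by rule were a set of key genes, up to 3 called genes with the lowest p per list and direction, 8 per direction outside the lists, 5 per direction for the difference from CD4 cells, and the 5 largest changes per direction, the last 4 sets only where the groups did not overlap or, for CD4, where both tests called the gene. The last 3 sets leave out predicted, TCR, immunoglobulin, mitochondrial and ribosomal genes. Other listed genes were named after their values were seen, and a few named genes are not reported here. The members, lists and markers were chosen with earlier results of these data known. Recipient numbers in the labels pair CD4 with CD8 libraries, and the recipient entered as a replicate block with a within-recipient correlation of 0.145. Alternatives covered pseudocount, low-value filter, scaling, libraries in the fit, replicate blocks and each library left out.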

Additional observations from a re-analysis of the deposited data

Results flagged for a closer look

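Among the 4 allogeneic CD8 libraries, single values lay far from the other 3 by Dixon's test, which chance flags in about 1 of 20 groups, and 135 named genes were tested along with library measures. JL027-1 was high for Cxcr6 (36820.0), Exosc6 (224), Fasl (7265), Klrc1 (30520.0), Klrk1 (18420.0) and Serpinb6b (22390.0). The same library was low for Bspry (1851), Csf1 (285.1), Eomes (856.8) and Klf2 (2615), had the lowest median normalised count (237.62), and had the highest summed CD8 T cell markers (217740.0) and NK cell markers (99075). JL027-2 was low for Bach2 (57.29) and Usp18 (580.3) and high for Ckb (331.1). JL019-1 was high for Ccr7 (560.8). JL019-2 was set apart by Scd1 (13.73) and by 3401 TRB clonotypes at equal reads.

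In the interaction test the change from day 0 to allogeneic recipients differed between CD8 and CD4 cells for 20 of the 139 named genes. Over all genes the share was 0.962%. Of the named genes, 5 per direction were chosen for the lowest p in this test, so the count of 20 is no result about the named genes. The CD8 change was more positive, on the log2 scale, for Il2ra (4.89), Pdcd1 (4.06), Zbtb32 (3.48), Tnfrsf4 (3.42), Ckb (3.25), Gzmk (3.05), Ccr8 (2.84), Fasl (2.58), Nrp1 (2.47) and Tnfrsf9 (1.94). It was more negative for Itgae (-6.08), Scart1 (-5.67), Ccr9 (-5.53), Scin (-4.47), Sytl3 (-2.45), Id3 (-2.24), Rgs10 (-1.92), Cxcr6 (-1.67), Smpdl3b (-1.53) and Selenop (-1.41).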

How the results depend on the processing

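The day 0 group had 2 libraries, and the leave-out fits with 1 of them assume that it varies like the other groups. RNA depth is unknown. Leaving out 1 library gave 2795 to 4924 called genes, 1557 to 2616 higher and 1238 to 2467 lower, with the fewest called without day 0 JL019. Within prefix JL019 3095 genes were called, 1580 higher and 1515 lower, and within JL027 2083, 1240 higher and 843 lower, with fewer libraries in each. No named gene that was called reversed its direction under any alternative tried. Within a prefix, 17 (JL019) and 20 (JL027) of the 139 named genes lost their call, among them Ckb, Dgka, Egr3, Klra6, Mx1, Pfkm, Ptpn22, Scart1, Sqle and Zbp1 within both.

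A replicate block for the label prefix gave 5148 called genes, and one for the recipient 5074. Deviations of same-prefix day 0 and allogeneic libraries correlated at -0.169 to 0.177, but with 2 day 0 libraries these deviations are exact opposites, so the check says little about pairing. The JL027 allogeneic libraries shared high Y-linked levels, which the JL027 day 0 library did not have, and a TRB overlap of 0.126. The genes whose change differed between prefixes included the Y-linked Ddx3y, Uty and Kdm5d. Their JL019 change minus JL027 change was -11.42, -6.98 and -5.74 on the log2 scale. The others were the predicted genes Gm33815 (-8.43) and Gm28356 (-6.91). For the difference between CD8 and CD4 cells the recipient replicate block gave 256 genes and leaving out 1 library 69 to 174; the genes with a more positive CD8 change numbered 96 after quantile normalisation against 48, and those with a more negative one 58 after median centring against 113. Against syngeneic cells the lower genes numbered 1067 without syngeneic JL027, against 1783. The clonality difference between allogeneic and day 0 libraries, 0.152 for TRB, was 0.191 for TRA, 0.174 without subsampling, 0.126 with at least 2 reads per clonotype, and 0.148 to 0.164 without 1 library. The cause of these shifts was not tested.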
